A study of Mus musculus with 6 samples.

Results

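The baseline distribution of H3K27me3 in control granulosa cells (GCs) was described from the 3 CUT&Tag libraries of the PBS group, out of 6 libraries in the series. Peaks that overlapped or touched were merged within each library and then across the libraries, and a region was kept when all 3 libraries had a peak in it. This left 2292 shared regions of 8743 regions in the PBS group, or 26.2%. The whole series held 12430 regions by the same merging. A gene was called marked when 1 of its transcription start sites (TSSs) lay within 2 kb of a shared region, which held for 1742 of 55536 annotated genes. The GCs came from ovaries of ICR female mice 3 weeks of age that had been primed with pregnant mare serum gonadotropin, injected with phosphate-buffered saline (PBS) and killed 6 h later. All 3 libraries had the same treatment, each pooled the GCs of 3 mice, and no genetic alteration is named. The libraries are bulk preparations, in which a mark carried by part of the cells and a weaker mark in all of them cannot be told apart.

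H3K27me3 is the trimethylation of lysine 27 on histone H3. It is written by Polycomb repressive complex 2, whose catalytic subunit is EZH1 or EZH2, and removed by the demethylases KDM6A and KDM6B. Polycomb repressive complex 1 can bind the mark through its CBX subunits. In differentiated cells the mark is known to lie over genes that direct other lineages, above all transcription factor genes of embryonic patterning, and CpG islands are known recruitment sites. GCs surround the oocyte, make estradiol and respond to follicle-stimulating hormone. They share an origin with the Sertoli cells of the testis.

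Sequences at peak summits of the highest-ranked marked genes are shown to give the base composition under the mark, which did not enter the choice of regions. Each is 200 bp around the summit in the library in which the region ranked highest or, where that window met an untranslated region, in another. The windows were taken in rank order among the 20 genes described below, with none in an untranslated region. They are read 5′ to 3′ on the strand of the gene from GRCm38 (mm10), and capitals mark CpG dinucleotides.
E030030I06Rik, chr10:22150711-22150910, minus strand, between genes: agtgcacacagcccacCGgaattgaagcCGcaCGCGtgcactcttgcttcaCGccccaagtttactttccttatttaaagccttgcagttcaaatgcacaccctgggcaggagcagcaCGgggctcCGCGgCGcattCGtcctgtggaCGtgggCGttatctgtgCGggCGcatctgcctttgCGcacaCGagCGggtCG
Six2, chr17:85690720-85690919, minus strand, between genes: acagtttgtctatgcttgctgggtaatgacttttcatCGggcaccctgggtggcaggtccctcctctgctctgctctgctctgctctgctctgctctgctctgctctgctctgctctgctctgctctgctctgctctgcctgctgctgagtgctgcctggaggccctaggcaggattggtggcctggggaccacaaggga
Zc3h7a, chr16:11143900-11144099, minus strand, intron: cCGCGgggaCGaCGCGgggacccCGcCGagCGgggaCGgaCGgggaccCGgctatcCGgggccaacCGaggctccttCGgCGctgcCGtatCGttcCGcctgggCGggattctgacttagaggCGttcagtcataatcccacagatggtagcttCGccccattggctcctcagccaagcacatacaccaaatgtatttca
Bhlha9, chr11:76672880-76673079, plus strand, coding exon: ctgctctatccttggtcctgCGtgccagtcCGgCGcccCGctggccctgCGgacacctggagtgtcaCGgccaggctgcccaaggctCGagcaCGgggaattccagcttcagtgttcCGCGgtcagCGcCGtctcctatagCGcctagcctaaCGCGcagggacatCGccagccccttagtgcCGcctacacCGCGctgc
Igsf21, chr4:140246028-140246227, minus strand, intron: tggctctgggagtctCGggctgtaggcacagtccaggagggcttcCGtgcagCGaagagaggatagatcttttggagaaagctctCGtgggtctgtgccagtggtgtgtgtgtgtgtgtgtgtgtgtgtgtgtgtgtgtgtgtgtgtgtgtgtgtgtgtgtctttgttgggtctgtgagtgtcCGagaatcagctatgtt
Gabbr2, chr4:46990516-46990715, minus strand, intron: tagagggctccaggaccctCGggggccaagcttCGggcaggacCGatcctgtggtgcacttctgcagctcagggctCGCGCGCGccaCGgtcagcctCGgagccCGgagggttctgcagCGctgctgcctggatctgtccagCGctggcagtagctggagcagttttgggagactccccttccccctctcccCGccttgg
The windows of Zc3h7a, Bhlha9, E030030I06Rik and Gabbr2 held 21, 19, 18 and 13 CpGs. Those of Igsf21 and Six2 held 5 and 1, and a run of short tandem repeats fills much of both, with 38% and 43% of their bases in annotated repeats. Over the 2156 shared regions that were not mostly repeats, a summit window of this size held a median of 6 CpGs, with quartiles of 3 and 12. The same window centred on the TSSs of all protein-coding genes held a median of 10. The region at Zc3h7a had an unusually high enrichment over its local background, as given below.

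Sequencing depth was read from the peak statistics. It came to 1957 reads per Mb in replicate 1, 1375 in replicate 2 and 1595 in replicate 3. The libraries had 6378, 4244 and 5325 merged peaks, a mean of 5316 ± 1067 (SD, n = 3). Replicate 2 was both the shallowest library and the one with the fewest peaks. Another 1537 regions were present in 2 of the 3 libraries, and 990 of these were missing from replicate 2. The remaining 4914 regions were seen in 1 library. Regions of 3, 2 and 1 libraries had median widths of 817.5, 418 and 205 bp. A TSS lay within 2 kb of 70.5%, 61.9% and 38.2% of them, and 5.93%, 6.9% and 14.7% were repeat-rich, with at least 50% of their bases in annotated repeats or a place on the mitochondrial genome or a contig.

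Presence in all libraries followed peak significance. Peaks of each library were cut into 5 equal parts by their −log10 q-value. In the lowest part, 12.5%, 35.3% and 19.5% of the peaks of replicates 1, 2 and 3 lay in a shared region, and in the highest part 84.0%, 94.1% and 89.4% did. The share rose at each step in every library. The regions were therefore ranked by −log10 q within each library, as a percentile in which 100 is the highest, and the mean over the 3 libraries was taken. The SD of the percentile between libraries had a median of 12.8 over all shared regions and 0.35 over the 100 highest. The 764 lowest-ranked regions had a median SD of 21.1. The highest regions were picked by the mean of the same percentiles, which cannot pass 100, so that their small SD follows in part from the choice.

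**Figure D1:**
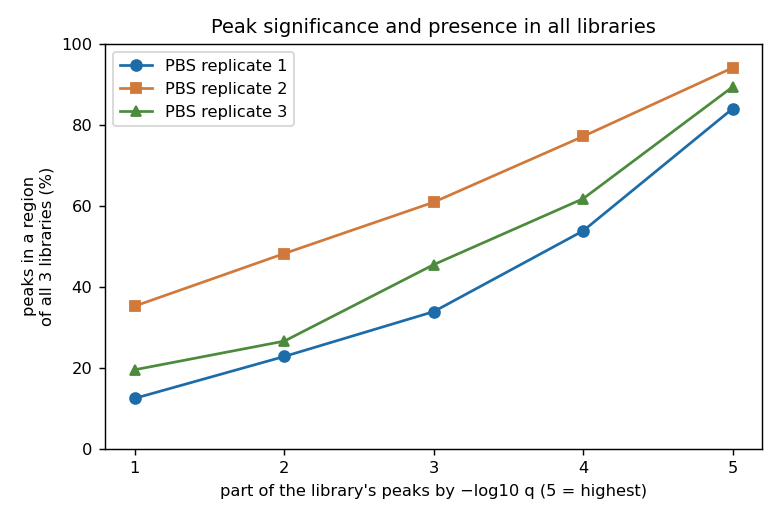
Share of merged peaks (%) of each PBS library that lie in a region present in all 3 libraries, in 5 equal parts by the library's own −log10 q-value (5 is the highest). The lines climb from between 12.5% and 35.3% to between 84.0% and 94.1%, with the shallowest library, replicate 2, above the others at each step.

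The shared regions were short. They covered 2.11 Mb in all, with widths from 205 to 4645 bp and quartiles of 541.75 and 1198.5 bp. Only 89 regions (3.88%) were wider than 2 kb and none was wider than 5 kb. The bases under a peak in every library came to 1.01 Mb, or 47.7% of the covered length, and 80 regions held no base that was covered in all 3 libraries. Of the 2292 regions, 1617 had a TSS within 2 kb, 1464 had a protein-coding one, and a TSS lay inside 662 (28.9%). Among the other 675 regions, 260 (38.5%) lay in the body of a protein-coding gene.

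Protein-coding genes made up 1248 of the 1742 marked genes, which is 5.67% of 22028 protein-coding genes. Over genes of every kind the share was 3.14%. Taken singly, replicates 1, 2 and 3 had a peak within 2 kb of a TSS of 9.07%, 7.11% and 8.71% of protein-coding genes, a mean of 8.30% ± 1.04 (SD, n = 3). Long noncoding RNA genes were marked less often, with 290 of 10155 (2.86%), and 88 of these 290 had no protein-coding TSS near their region. Pseudogenes had 51 of 13525 (0.377%) and microRNA genes 33 of 2207 (1.5%). A further 126 genes had a promoter peak in every library but no single region that all 3 shared. In turn 45 marked genes were reached only through the merged region, since some library had no peak of its own within 2 kb of their TSS.

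Many of the highest ranks lay in repeats or away from a TSS. Of the 100 highest-ranked regions, 43 were repeat-rich and 49 had a TSS within 2 kb, and 8 of the first 20 were repeat-rich. Genes that lie in such regions included Gm10800, at the region ranked 1, and Gm10717, Gm10718, Gm10722, Gm10801 and Gm11168, predicted genes in repeats. Some shared regions lay on the mitochondrial genome, which is not wrapped around histones, and 1 of them had the TSSs of 5 mitochondrial genes within 2 kb. The 20 protein-coding genes described next were therefore taken outside repeat-rich regions. With repeat-rich, mitochondrial and contig regions left out, 2156 regions and 1650 genes remained, and 5.54% of protein-coding genes were marked.

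The 20 highest-ranked protein-coding genes outside repeats had mean percentiles from 97.5 to 98.9. They came from no single class. Genes of patterning were Six2, a transcription factor of nephron progenitors, Bhlha9, a factor of limb development, and Hes2, a relative of the Notch targets of the HES family. Genes of neurons and cell contacts were Gabbr2, a subunit of the GABA-B receptor, Slit2, an axon guidance ligand, Igsf21, a synaptic adhesion protein, Pcdh1, a protocadherin, and Ajm1, a junction protein. Galr1 and Kiss1r encode the receptors of galanin and kisspeptin. H60b and Raet1e, ligands of the NKG2D receptor of natural killer cells, had their TSSs at 1 region, and Fcgr3 encodes a receptor for immunoglobulin G. Slc22a3 encodes an organic cation transporter and St6galnac5 a sialyltransferase. Mpnd and Stap2 had 1 narrow region of 239 bp between them, Kiss1r and R3hdm4 also had the same region, and Zc3h7a and E030030I06Rik complete the list. The mark cannot be assigned to 1 gene of such a pair. The 5′ end of R3hdm4 lay inside its region, while the nearest TSS of Kiss1r, an internal one, lay 906 bp away. Zc3h7a was also reached only through an internal TSS, 1899 bp from its region. Fold enrichment is a ratio of reads at the summit to the local background. Over shared regions its medians were 3.60, 3.62 and 3.66 in replicates 1, 2 and 3. At Zc3h7a it was 13.5, 16.9 and 15.4, on 34, 43 and 41 reads. At the region of Mpnd and Stap2 it was 13.9, 11.6 and 11.9, on 42, 33 and 36 reads. Each library covered the same 239 bp there. The cause of these high ratios was not tested. The last gene inside the limit, Hes2, had a mean percentile of 97.49 and the next, Dlgap2, had 97.47.

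E030030I06Rik had the highest mean percentile of these genes, with 98.9, 98.6 and 99.1 in replicates 1, 2 and 3. Its region of 1851 bp began 696 bp from the TSS. The highest pileups there, the number of fragments over the summit, were 124, 97 and 125 reads, and all 3 summits lay 1541 to 1570 bp upstream.

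Six2 ranked next, with percentiles of 99.2, 98.0 and 99.3 and pileups of 128, 75 and 133 reads. At a common depth of 1000 reads per Mb this was 67.8 ± 14.6 reads (SD, n = 3). Its region lay upstream, 1844 bp from the TSS at its nearest edge, and its summits lay farther upstream. Replicate 3 alone had a peak of its own within 2 kb, so that Six2 counts as marked only through the merged region. The other 19 of these genes had such a peak in every library.

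Slc22a3, by contrast, had its summits 51 to 67 bp downstream of the TSS. The percentiles were 98.4, 98.2 and 98.3, and the pileups of 75, 54 and 68 reads came to 40.1 ± 2.27 reads at the common depth. Gabbr2 was as even, with a percentile of 98.0 in each library and pileups of 84, 66 and 81 reads. Kiss1r and R3hdm4 were less even. Their region stood at 98.3, 95.4 and 99.0, with replicate 2 the lowest.

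The 10 widest regions were described in the same way. The widest, 4645 bp on chromosome 17 from 39843850 to 39848494, had a mean percentile of 99.8. It held the TSSs of AY036118, CT010467.1, Gm26917 and Gm42418, none of them protein-coding. Its pileups of 563 and 741 reads in replicates 1 and 3 stood far above the medians of 41 and 38 over all shared regions. Only 4.35% of its bases were in annotated repeats, and the cause of these pileups was not tested. The next 9 regions were 2740 to 3228 bp wide. Among them were those at Lrrc26 and Tmem210, which had the same region, at Gm26592, at Mir124a-3, a gene of the neuronal microRNA miR-124, and at Nol4, Lingo1, Rbfox3, B3gat1 and Dscaml1. Lingo1 is a nervous system membrane protein, Rbfox3 encodes the neuronal nuclear antigen NeuN, B3gat1 makes the HNK-1 carbohydrate, and Dscaml1 is a neural adhesion molecule. Width and rank were loosely related, with a Spearman coefficient of 0.36 across the 2292 regions, which share the same libraries. None of the 10 widest regions belonged to the 20 highest-ranked genes, but so few of 2292 regions leave little room to overlap. Wide regions were not rare among the 20 genes. Bhlha9, Galr1, Slit2, Hes2, Ajm1, and Kiss1r with R3hdm4 had regions of 2105 to 2448 bp. The other genes of the 20 had regions below 2 kb. Of all shared regions, 3.88% were wider than 2 kb.

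**Figure D2:**
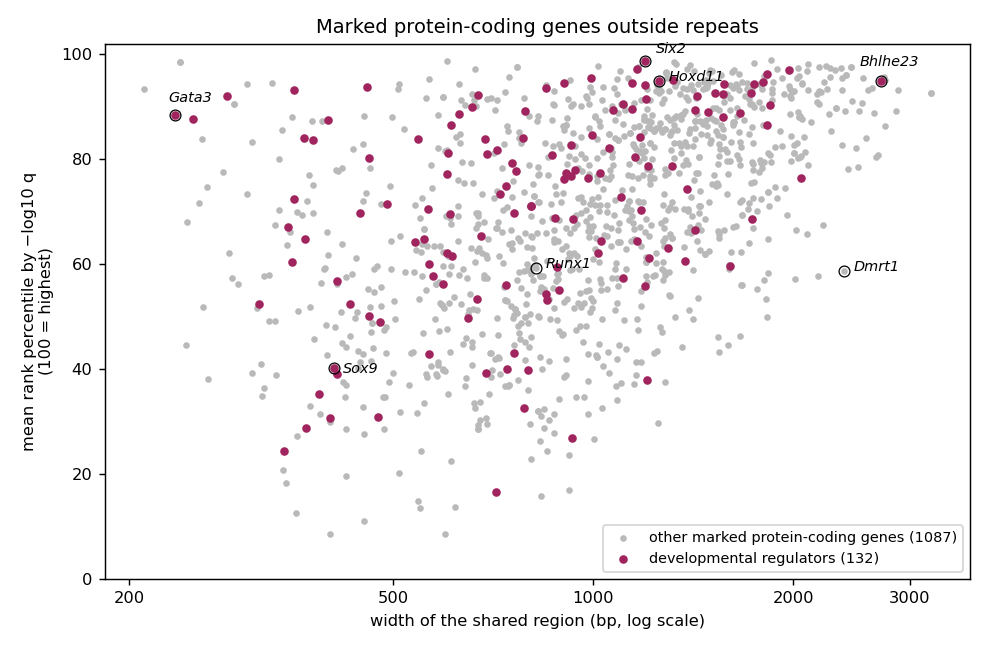
Each point is a marked protein-coding gene outside repeat-rich regions and the mitochondrial genome, placed by the width of its highest-ranked shared region (bp, log scale) and by its mean rank percentile (100 is the highest). The 132 developmental regulators spread over the range of ranks but few lie at the right, and Bhlhe23 at 2714 bp is the widest of them.

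Developmental regulators formed the most heavily marked large group. The 8 lists of transcription factor families held 291 genes, of which 132 (45.4%) were marked, against 5.13% of all other protein-coding genes. The libraries singly had a promoter peak at 62.5%, 48.5% and 60.5% of the 291. In 131 genes all 3 libraries had one, and in 92 none did. The group ranked little above the rest, with a median percentile of 76.4 for its marked members and 71.9 for all marked protein-coding genes.

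Homeobox genes outside the Hox clusters had the highest share. Of the LIM, PAX, IRX, NKX, DLX and Six-family genes, which pattern organs and neural tube, 35 of 53 (66.0%) were marked, led by Six2, Irx1, Lhx6 and Irx2. Irx1 had percentiles of 93.4, 94.3 and 95.9 and pileups of 87, 70 and 83 reads. Of the other homeobox and POU genes, 42 of 70 (60.0%) were marked. Dbx2, Pitx1, Emx1 and Barx2 led these, with mean percentiles of 97.1, 97.0, 95.5 and 95.2. Pitx1, a factor of hindlimb and pituitary, had pileups of 134, 84 and 99 reads, the highest of these 4 genes in replicates 1 and 2.

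The Hox genes, which set position along the body axis, had 11 of 39 marked (28.2%). Replicates 1, 2 and 3 had a promoter peak at 23, 11 and 22 of them, so that replicate 2 saw less than the others. Without replicate 2 the number marked was 18 (46.2%). Hoxd11 had a mean percentile of 94.9, while Hoxb6 and Hoxb7 had the same region at 71.1, and replicate 2 had no peak of its own within 2 kb of Hoxb6. At Hoxd11 the pileups were 99, 62 and 83 reads, which came to 49.2 ± 3.67 reads at the common depth.

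The other factor families had shares below those of the homeobox genes outside the Hox clusters. The bHLH genes of tissue differentiation had 17 of 42 (40.5%), led by Olig1, Bhlhe23, Ptf1a and Olig3, which act in oligodendrocyte, neural and pancreatic lineages. The T-box genes had 6 of 17 (35.3%), led by Tbx20 and Tbx18, the forkhead genes 13 of 44 (29.5%), led by Foxf1 and Foxi3, and the SOX genes 5 of 20 (25.0%). The marked SOX genes were Sox17, Sox10, Sox21, Sox2 and Sox9, in falling order of rank from 94.4 to 40.3. Without replicate 2 the SOX number was 7 and the T-box number 8.

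The GATA genes split evenly. Gata2, Gata3 and Gata5 had a promoter peak in all 3 libraries and were marked, and Gata1, Gata4 and Gata6 had none in any library. Gata4 and Gata6 are the members known to act in GCs. Gata3 had a region of only 235 bp, yet a mean percentile of 88.5 and pileups of 81, 56 and 75 reads. Gata5 had percentiles of 86.8, 88.2 and 60.9, with replicate 3 the lowest, and Gata2 had 58.5, 58.2 and 78.0.

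**Figure D3:**
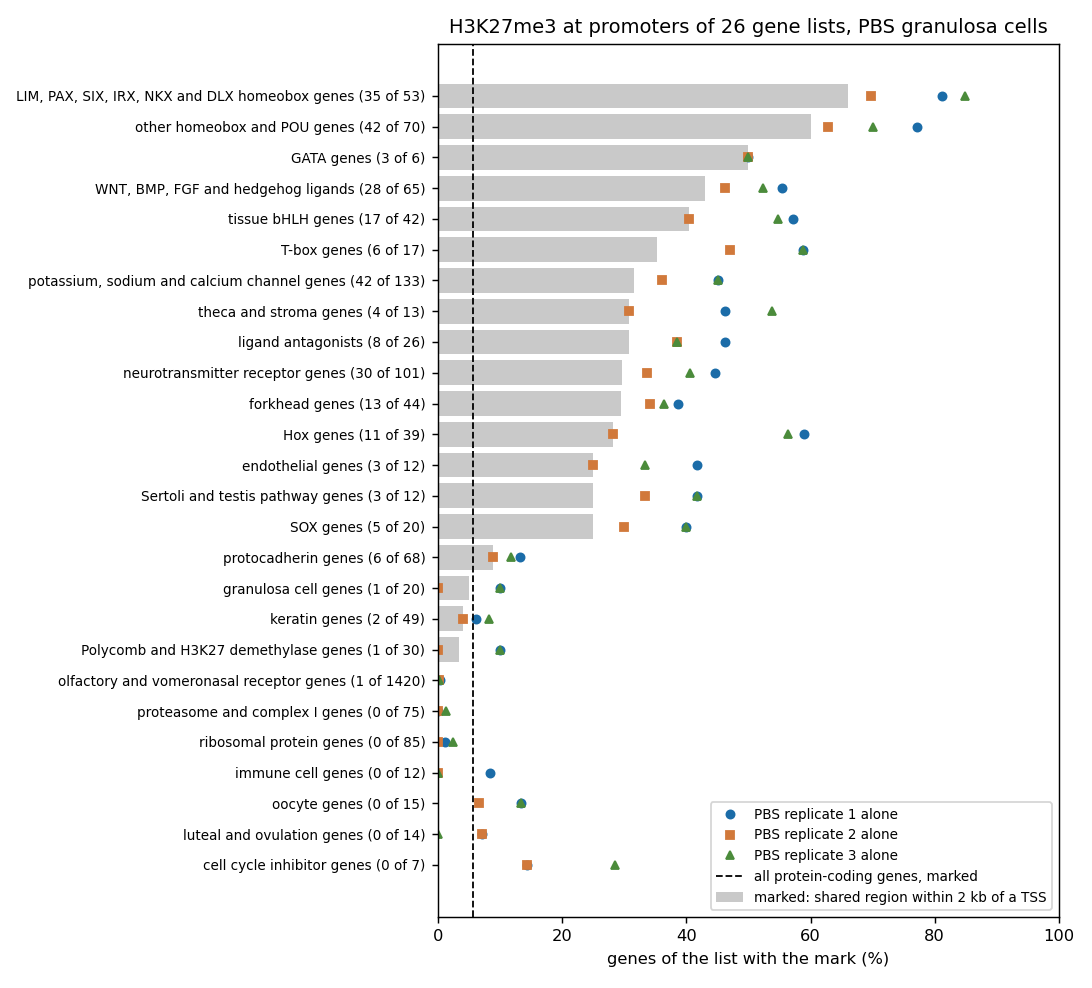
Grey bars show the share (%) of each of 26 gene lists that is marked, with numbers in brackets, and the points show the share with a promoter peak in each PBS library alone. The dashed line is the 5.67% of all protein-coding genes, and factor families, signalling and neuronal lists lie to the right of it while housekeeping lists lie at or near 0.

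Ligands of the pathways that act with these factors were marked at a like rate. Of 65 WNT, BMP, FGF and hedgehog ligand genes, 28 (43.1%) were marked. Wnt3a had percentiles of 99.1, 98.3 and 93.7 and pileups of 138, 86 and 83 reads. Wnt7a, Wnt7b and Fgf3 followed, with mean percentiles of 95.0, 93.1 and 91.4. Of 26 genes for antagonists of these ligands 8 (30.8%) were marked, led by Sfrp5 and Dkk1, secreted inhibitors of WNT signalling, at 97.1 and 91.6, and then Dkk2 and Fstl4.

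Genes of neuronal function formed another marked group. Potassium, sodium and calcium channel genes had 42 of 133 (31.6%), led by Kcna2, Kcns1, Kcng2 and Kcnh3. Neurotransmitter receptor genes had 30 of 101 (29.7%), led by Gabbr2, Htr1a, Adrb3 and Grin3a. The receptor genes had a median percentile of 83.8, above that of all marked genes. The channel genes stood at 70.4, below it. Protocadherins, many of which lie in clusters with 1 promoter per variable exon, had 6 of 68 (8.82%), led by Pcdh1, Pcdh17, Pcdh15 and Pcdh10.

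GC identity genes mostly had no called peak, but neither did most protein-coding genes, of which 19642 of 22028 had none in any library. Of 20 genes of GC identity or function, 17 had no promoter peak in any library. Among these were Foxl2, the factor that maintains ovarian fate, the hormone receptor genes Fshr, Esr2 and Amhr2, and Cyp19a1 and Cyp11a1, which make estradiol and pregnenolone. Inha, Inhba, Inhbb, Amh, Nr5a1, Nr5a2, Wt1, Gata4, Fst, Gja1 and Hsd17b1 were also without a peak. Ccnd2, cyclin D2, had a peak in replicates 1 and 3 and Kitl, the ligand of KIT, had one in replicate 3. The only gene counted as marked was Runx1. Its shared region lay 1993 bp from the TSS, just inside the limit of 2 kb, and replicate 1 alone had a peak of its own within that distance. The label of the cells was not contradicted by its markers. Expression was not used here, and 1 of 20 marked genes lies near the 5.67% of all protein-coding genes. Nor do 17 of 20 without a peak set the list apart from 19642 of 22028.

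Genes of luteinisation and ovulation had 0 of 14 marked, which with so few genes cannot be set apart from the 5.67% of all protein-coding genes. These included Lhcgr, the luteinizing hormone receptor, Pgr, Star, Ptgs2, Tnfaip6 and Ptx3, none with a peak in any library. Areg had a promoter peak in replicate 1 and Has2 in replicate 2.

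The Sertoli and testis list had 3 of 12 marked, against 5.67% of all protein-coding genes, and no test was run on so short a list. Sox9, the factor that starts Sertoli differentiation, had percentiles of 55.1, 41.8 and 23.9, pileups of 30, 25 and 24 reads, and a region of 407 bp that lay 1659 bp from the TSS. Dmrt1, which maintains male fate in the testis, had a wide region of 2388 bp over its TSS at 72.4, 36.9 and 66.9. Cyp26b1, which breaks down retinoic acid, had percentiles of 64.4, 66.2 and 2.1, so that replicate 3 barely reached it. Cbln4 had a promoter peak in all 3 libraries without 1 region in common, and Fgf9 had one in replicates 1 and 3. The other 7 genes, among them Sox8, Dhh and Nr0b1, had none. Without replicate 2 the number marked was 5, against 7.07% of all protein-coding genes.

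Markers of other ovarian cells were mixed. Theca and stroma genes had 4 of 13 marked, against 5.67% of all protein-coding genes. Insl3, a theca and Leydig cell hormone, had pileups of 112, 84 and 88 reads at a region of 390 bp. Pdgfra, Col1a1 and Gli1 had lower mean percentiles of 75.0, 59.0 and 44.2, and Cyp17a1 had no peak. Endothelial genes had 3 of 12, namely Sox17, Flt1 and Esam, while Pecam1, Cdh5, Tek and Tie1 had none. Sox17 also counts among the SOX genes, and Sox9 among both SOX and Sertoli genes. Oocyte genes had 0 of 15 and immune cell genes 0 of 12, and against 5.67% of all genes these lists are also too short to stand apart. Without replicate 2, 6 theca and stroma genes and 2 oocyte genes were marked. Kit and Lhx8 were the oocyte genes with a peak in replicates 1 and 3.

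Sensory receptor and keratin genes differed in their shares. Olfactory and vomeronasal receptor genes, the sensory receptors of the nose, had 1 of 1420 (0.0704%) marked against 5.67% of all protein-coding genes. This was Olfr94, with percentiles of 91.7, 93.6 and 93.4. Keratins had 2 of 49 (4.08%), Krt19 and Krt87, which is near the share of all genes. Genes that every cell uses had no shared region, with 0 of 85 ribosomal protein genes and 0 of 75 proteasome and complex I genes. Rpl26 and Psma1 had a promoter peak in replicate 3 and Rpl38 had one in replicates 1 and 3.

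Of the Polycomb genes themselves 1 of 30 (3.33%) was marked, a share near the 5.67% of all protein-coding genes, and without replicate 2 the number was 2. Ezh1, Ezh2, Eed, Suz12, Kdm6a and Kdm6b had no promoter peak in any library. Among 7 cell cycle inhibitor genes 0 were marked, too few genes to set against 5.67%, and 1 was marked without replicate 1 or without replicate 2. Cdkn2a, a classical Polycomb target that encodes p16 and p19ARF, had a promoter peak in each library, but these did not form 1 shared region. Cdkn1c had a peak in replicate 3.

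Local background differed between the groups of marked genes. The peak caller compares each summit with the reads around it, and the recovered background at the strongest summit was expressed as a multiple of the floor that stands for the genome as a whole. For developmental regulators its median was 59.9, 58.9 and 65.2 times the floor in replicates 1, 2 and 3. For the other 1087 marked genes outside repeats it was 22.4, 23.4 and 25.3 times. The pileups were also higher at developmental regulators, with medians of 69.5, 48 and 59.5 reads against 38, 28 and 35 reads. The fold enrichment ran the other way, at 2.78, 2.90 and 2.80 against 3.87, 3.83 and 3.94. Thus developmental regulators had more reads at and around the summit and the smaller enrichment in every library. This did not hold between classes of width, as given below. Hox genes lay at 73.0, 62.5 and 69.9 times the floor and neurotransmitter receptor genes at 21.1, 23.4 and 25.5 times.

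The number of peaks nearby ran with this background. Within 10000 bp on either side of the 5′ end of the gene, developmental regulators had a mean of 3.14, 2.18 and 2.70 peaks in replicates 1, 2 and 3, and the other marked genes had 1.91, 1.60 and 1.78. At least 3 peaks were found at 62.9%, 30.3% and 51.5% of developmental regulators and at 25.8%, 14.8% and 20.2% of the others. The bases under peaks in this window had medians of 1514, 886 and 1285 bp at developmental regulators. At the others they were 1119, 752 and 1050 bp.

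Developmental regulators were the less frequent the wider the highest-ranked region of the gene. This is the width of 1 called region per gene. It does not measure all called bases around the gene, which were more numerous at developmental regulators, as given above. They made up 16.7% of the 162 marked protein-coding genes with a region of up to 500 bp, 12.2% of 467 up to 1000 bp, 8.53% of 539 up to 2000 bp and 2.50% of 80 above that. The 2 in the last class were Bhlhe23 and Pax8. Repeat-rich regions fell in the same order, from 16.5% to 1.12%. The background also differed by width, from a median of 21.7, 22.2 and 24.0 times the floor for regions up to 1 kb to 32.3, 33.4 and 37.5 times for those over 2 kb. Here the fold enrichment was higher along with the background. Its medians were 3.48, 3.54 and 3.61 up to 1 kb and 4.24, 3.87 and 4.18 over 2 kb. The part of the local background in the widths and ranks was not tested.

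Promoter CpG content was another measure that the choice of regions had not used. A promoter was the sequence within 500 bp of the 5′ end of a gene, and CpG-rich meant a ratio of observed to expected CpG of at least 0.6 with at least 50% GC. Marked protein-coding genes had a median ratio of 0.64 and the others 0.54, and 55.5% against 43.7% of them were CpG-rich. The share of genes marked did not simply rise with the ratio. It was 1.20% below 0.2, 3.88% up to 0.4, 10.6% up to 0.6, 8.43% up to 0.8, 5.19% up to 1 and 4.95% above it. The most CpG-dense promoters were thus marked less often than those of middle density.

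Lists differed in how the mark ran with CpG content. Of the CpG-rich developmental regulators 47.2% were marked and of the CpG-poor ones 41.8%. The gap was wider in some of the signalling and neuronal lists. For WNT, BMP, FGF and hedgehog ligands 19 of 33 CpG-rich and 9 of 32 CpG-poor genes were marked, for neurotransmitter receptors 17 of 35 and 13 of 66, and for protocadherins 5 of 11 and 1 of 58. Potassium, sodium and calcium channel genes had a smaller gap, with 18 of 49 and 24 of 84. The factor families differed in direction, with Hox genes at 5 of 24 and 6 of 15 and tissue bHLH genes at 11 of 20 and 6 of 22. These gaps were not tested. The ribosomal protein genes had 71 of 85 CpG-rich promoters and 0 marked genes. The olfactory and vomeronasal receptor genes had 1 of 1420 CpG-rich promoters and a median ratio of 0.10, and the 12 immune cell genes had 0.

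**Figure D4:**
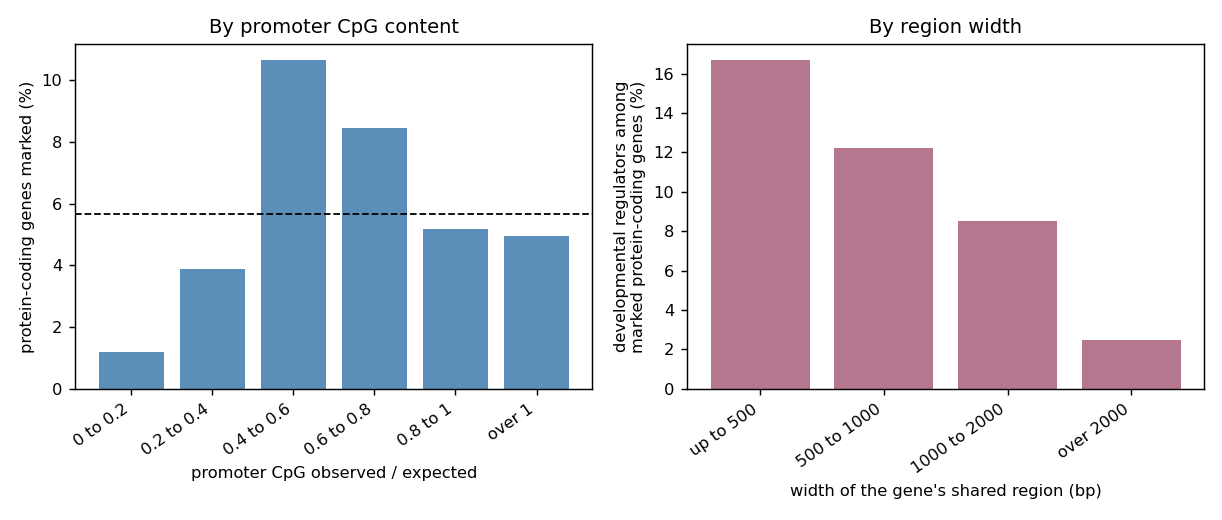
Left, share (%) of protein-coding genes marked in each class of promoter CpG ratio, with the 5.67% of all genes as a dashed line and the highest bar, 10.6%, between 0.4 and 0.6. Right, share (%) of developmental regulators among marked protein-coding genes in each class of width of the gene's highest-ranked region, falling from 16.7% to 2.50%.

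Peaks lay mostly downstream of the TSS. Over the 1248 marked protein-coding genes, coverage by called peaks was highest 1000 to 1100 bp downstream of the 5′ end in replicate 1, where 37.4% of genes were under a peak. In replicate 2 it was highest at 600 to 700 bp, with 27.7%, and in replicate 3 at 700 to 800 bp, with 36.3%. The mean coverage of the first 1 kb downstream was 32.7%, 24.8% and 32.5%, and that of the first 1 kb upstream 17.0%, 12.1% and 15.7%. The excess on the downstream side was larger than the difference between libraries. Over the 1063 genes whose own 5′ end lay within 2 kb of a shared region, which leaves out genes reached through another TSS, the shares were 38.0%, 29.0% and 37.9% downstream and 19.8%, 14.2% and 18.1% upstream. Since a peak had to lie within 2 kb of some TSS for a gene to count, only the asymmetry, and not the fall with distance, describes the mark.

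**Figure D5:**
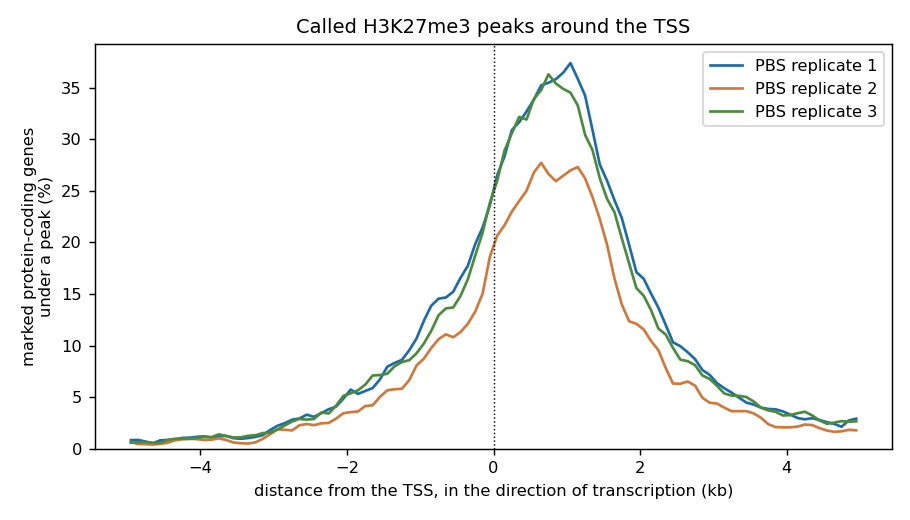
Share (%) of the 1248 marked protein-coding genes under a called peak in bins of 100 bp from 5000 bp upstream to 5000 bp downstream of the gene's 5′ end, for each PBS library. All 3 lines are higher downstream, with tops of 37.4%, 27.7% and 36.3%.

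Chromosome X held few called regions. Peaks were called against the reads around them, so a mark spread evenly along a chromosome would not be counted here. Few regions therefore cannot be read as little mark. It held 37 shared regions, or 0.216 per Mb, and 8 of its 948 protein-coding genes (0.844%) were marked. The autosomes ranged from 0.448 to 1.39 regions per Mb. From 4.07% of the protein-coding genes on chromosome 16 to 8.71% on chromosome 12 were marked, so that chromosome X lay outside the range of the autosomes on both measures. Its marked genes included Cdx4, a caudal homeobox gene, and Pcdh19, a protocadherin, which were picked out after their values were seen.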

How the data were processed

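CUT&Tag for H3K27me3 was done in 6 GC libraries, of which the 3 of the PBS group were described. The authors aligned reads to mm10 with BWA 0.7.12, kept mapping qualities of at least 13, removed duplicates and called narrow peaks in each library with MACS2 2.1.0 at a q-value of 0.05. Use of a control library is not given in the sources used here. The deposited lists hold, for each summit, a fold enrichment, which is a ratio of pileup to local background, and the −log10 p-value and −log10 q-value, as the authors' peak caller gave them. H3K27me3 forms broad domains, which narrow peak calling can break up.

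Peaks were merged as described, and a region counted as present in a library when they overlapped by at least 1 bp. Intervals of the other 3 libraries entered only the number of regions in the series. Genes came from GENCODE M21 and sequence and repeats from GRCm38. Pileup, background and depth were solved from fold enrichment and p-value, with a solution at 99.8% to 99.9% of summits, and at least 99.9% of the backgrounds above the floor were whole multiples of 0.02, the worth of 1 read extended by 200 bp over 10000 bp. The precision of each is limited by counting error. No test was run, since there is 1 group. Each library is a pool of 3 mice, and an SD measures the spread between these pools. The text names the 20 highest-ranked protein-coding genes outside repeats, the 10 widest regions and the 4 highest of each of 26 lists, or all where 5 or fewer were marked; all members of the GC, luteal, Sertoli, Polycomb and cell cycle lists could be named, and other unmarked members were named after their values were seen. A few genes that this rule would name are not reported here. The members and lists were chosen with earlier results of these data known. Python 3.11.15, numpy 2.4.6, pandas 2.3.3, scipy 1.17.1 and matplotlib 3.10.9 were used. The merging and the recovery were tested on simulated data.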

Additional observations from a re-analysis of the deposited data

How the results depend on the processing

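No paired analysis was possible because the values come from 1 group and from no test. Of 125 values recomputed under alternatives, 76 stayed within the spread between libraries, or for counts within 1.5 times, and 49 moved.

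Stricter rules lowered both the developmental regulators and the background. With q-values of at most 1e-05, 995 regions and 911 genes remained, with 24.7% of developmental regulators, 2.80% of protein-coding genes, 0 GC genes, 58.6% CpG-rich promoters and a median width of 1057 bp. With the TSS inside the region, 732 genes remained, with 14.8% of developmental regulators, 2.57% of protein-coding genes, 0 GC genes, 50.5% CpG-rich promoters, 28.9% of regions at a TSS and 10 of the top 20 genes. With peaks covering at least 50% of a region in each library there were 1438 regions of median width 791 bp and 1154 genes, with 32.6% of developmental regulators, 3.74% of protein-coding genes and 0 GC genes. A TSS within 1 kb gave 35.4% of developmental regulators, 59.3% of regions near a TSS, 53.8% CpG-rich promoters and 0 GC genes. The 5′ end of the gene alone gave 37.5% of developmental regulators, 59.5% of regions, 59.4% CpG-rich promoters and 0 GC genes.

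Presence in 2 of 3 libraries gave 3829 regions of 598 bp, 67.1% near a TSS, with 57.4% of developmental regulators, 7.71% of protein-coding genes and 2 GC genes. Median width was 852.5 bp at q-values of at most 0.01, 871.5 bp with equal peak numbers, 1331.5 bp with peaks within 1000 bp joined, and 839.5 bp without repeat-rich, mitochondrial and contig regions, a setting chosen after seeing the data. CpG-rich promoters were 55.0% at 0.01 and 54.7% with joined peaks. Ranking by fold enrichment kept 6 of the top 20 genes.

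Leaving out 1 library at a time gave 2546 to 3306 regions, 1806 to 2157 genes, 620 to 625.5 bp, 45.4% to 55.3% of developmental regulators, 5.90% to 7.07% of protein-coding genes, 54.8% to 55.8% CpG-rich promoters and 0 to 2 GC genes. There were 0 GC genes without replicate 1 and 2 without replicate 2. The cause of these changes was not tested. Replicate 2 is the shallowest library, and at this depth a missing peak cannot be told apart from a weak mark. Nor can it be told apart from a mark with many reads around it, since the peak caller compares each summit with those reads. At the marked Hox genes the median fold enrichment was 2.53, 2.75 and 2.50 in replicates 1, 2 and 3. The part of this in the counts was not tested.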
